A study of Ovis aries with 15 samples.

Results

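H3K27ac, the acetylation of lysine 27 on histone H3, was compared between lambs and fetuses of the sheep in the fat around the kidney. The comparison rests on the 4 libraries made with an antibody against this mark, of 15 libraries in the series, and every one of the 4 was used: lamb samples 1 and 2, and fetal samples 1 and 2. The lambs were wild type purebred merino sheep, described as 80 days after birth in the stage label and as 89 ± 7 days in the growth protocol. The fetuses were wild type purebred merino sheep at 132 ± 1 days after conception, where term is 150 ± 3 days. Neither stage was treated, and the animals were kept at their full maintenance energy. Lamb titles carry the ending VEH, which fetal titles lack; its meaning cannot be told apart from age. The sex of the animals is not in the labels. In both stages perirenal adipose tissue was frozen, nuclei were isolated, chromatin was cut with micrococcal nuclease without crosslinking, and the fragments were recovered with the same lot of the same antibody. A promoter table gives 1 value per library for 13222 promoters, and a region table gives read counts for 87272 regions, of which 86246 lie on numbered chromosomes, 1025 on X and 1 on the mitochondrial genome.

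Acetyl groups on lysine 27 are placed by the enzymes CBP and p300 and mark promoters and enhancers in use, and the same lysine cannot carry the Polycomb mark H3K27me3 while it is acetylated. Perirenal fat of the newborn lamb is brown fat, which burns fuel for heat through UCP1, a protein that lets protons leak across the inner mitochondrial membrane. In the weeks after birth this depot turns into white fat, which stores lipid in large droplets. Fat tissue also holds preadipocytes, vessels, nerves and immune cells, and in such bulk chromatin fewer cells of a type and less mark per cell cannot be told apart.

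Promoter reads numbered 5061861 to 6257855 per library and reads in regions 34871674 to 44096535. Between the lambs the Spearman correlation of promoter values was 0.94, between the fetuses 0.92, and across stages it was 0.756 to 0.822. The spread within a stage was smaller in lambs: the median within-stage standard deviation of a promoter on the log2 scale was 0.087 between the lambs and 0.147 between the fetuses. Of 28 adipocyte genes listed 26 are in the promoter table, and none of them was at 0 in any library, nor was any marker measured for another cell type. The table gives no background level, so these values do not show which cells carried the mark. Promoter values are given here after division by each library's column total times its TMM factor (a trimmed-mean scaling factor), so they compare libraries, not genes, since the sources used here give no width of the promoter window.

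At promoters, 1508 rose and 2341 fell in lambs, which is 11.4% and 17.7% of the 13222 tested (limma on log2(value + 1), Benjamini-Hochberg adjusted p under 0.05). By 2-fold or more, 111 rose and 141 fell. The change went with the level of the promoter. In the weakest decile by mean level 193 rose and 18 fell, and in the strongest decile 14 rose and 786 fell. Put in levels, the value at the 90th percentile was 2.70 and 2.81 times that at the 10th percentile in the lambs, against 4.13 and 4.20 times in the fetuses. Lamb promoter values were thus closer together than fetal ones, in both animals of each stage. Inputs were not used here, so a change of the mark and a weaker enrichment in the lamb libraries cannot be told apart.

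Each promoter was therefore also set against promoters of like mean level. Its like-level difference is its log2 change minus the median change of the promoters nearest to it in mean level. In a second limma fit, after cyclic loess normalization had removed the trend with level, 1143 promoters rose and 1343 fell (8.64% and 10.2% of those tested). The fits shared 711 promoters that rose and 1133 that fell (5.38% and 8.57%). A further 797 and 1208 passed only before the trend was removed, and 432 and 210 only after it. The split depends on the scaling: with column totals alone 2314 promoters rose and 1789 fell, and with the values as the authors scaled them 167 rose and 4012 fell, where the median change of all promoters was -0.30 in place of 0.02. The counts also moved with the library left out: without lamb 1 they were 142 and 1035, without lamb 2 they were 268 and 1464, without fetus 1 they were 2832 and 3014, and without fetus 2 they were 2839 and 2687. Of 280 promoters of the gene groups below that are named by rule and passed, 145 remained without lamb 1, 176 without lamb 2, 274 without fetus 1, 267 without fetus 2 and 203 with the authors' scaling, and 0 changed sign. The signs of these 280 could hardly turn, because they were picked for large changes in the same libraries. Of 50 sets counted, which are the gene groups and all promoters together, 44 held fewer calls by over 1.5 times without lamb 1, and 44 did without lamb 2.

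**Figure D1:**
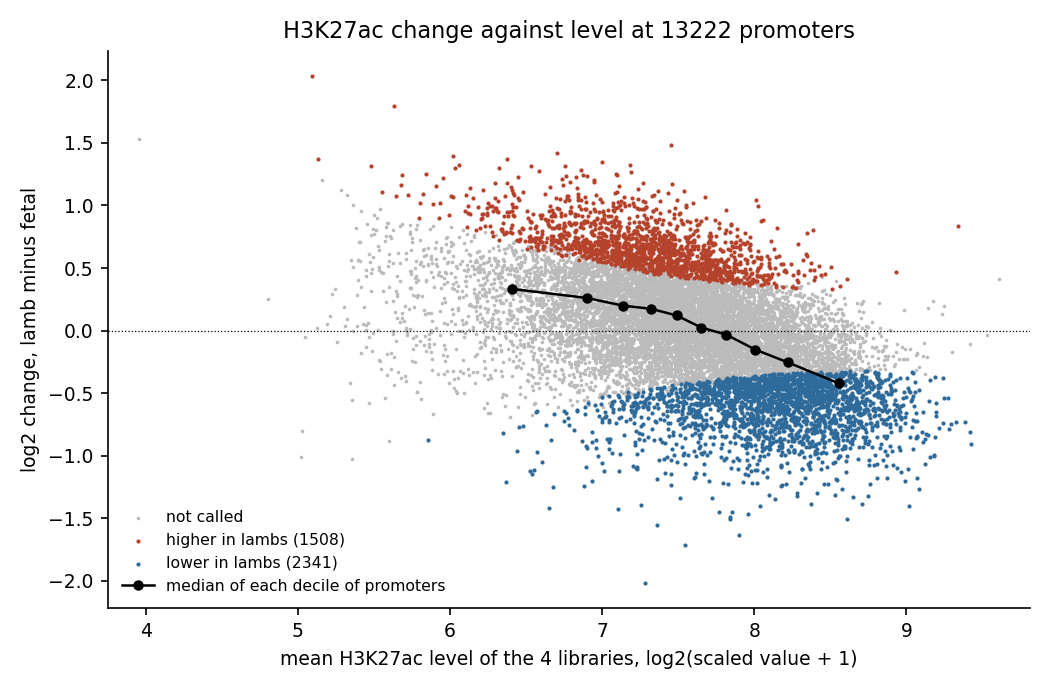
The x axis gives the mean level of each of the 13222 promoters over the 4 H3K27ac libraries as log2(scaled value + 1), and the y axis the log2 change, lamb minus fetal. Red points passed the limma test as higher in lambs (1508), blue points as lower (2341), and the black line joins the medians of deciles of the promoters, which lie above 0 at weak promoters and below 0 at strong ones.

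Several defining genes of brown fat heat production and of fat storage fell, also against like-level promoters. UCP1, the uncoupling protein of brown fat, had scaled values of 139.7 and 146 in the lambs, against 269 and 281 in the fetuses. Both lambs lay below both fetuses, with a log2 change of -0.94 ± 0.15 (SE), an adjusted p of 0.000242 by limma and a like-level difference of -0.92. DIO2, the deiodinase that makes active thyroid hormone within brown fat, had 152 and 164 in the lambs, against 268 and 303 in the fetuses, a change of -0.85 ± 0.15 (SE) with a like-level difference of -0.85. ADRB3, the adrenaline receptor that starts heat production in rodent fat, had 179.6 and 135 in the lambs, against 254 and 232 in the fetuses. Its change was -0.64 ± 0.17 (SE) and its limma call was lost without lamb 2. PPARGC1A, the coactivator that drives the making of mitochondria, had 244 and 271 in the lambs, against 439.5 and 506 in the fetuses. Its change of -0.87 ± 0.13 (SE) was as large as that of DIO2, but it is a strong promoter and its like-level difference was smaller, -0.50. LHX8, a homeobox gene used as a brown fat marker in mice, had 114 and 136 in the lambs, against 206 and 303 in the fetuses, which was the largest fall of the heat production list (log2 change -0.996 ± 0.19 (SE)).

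Not every gene of heat production did this. Of 38 listed genes 21 were in the table. Of these 7 fell and 2 rose, or 33.3% and 9.52%, beside 17.7% and 11.4% of all promoters. The median like-level difference was 0.0042. CIDEA, a lipid droplet protein abundant in brown fat, had 153 and 154 in the lambs, against 144 and 138 in the fetuses, with a change of 0.12 ± 0.18 (SE) that did not pass either fit and is -0.20 with the values as the authors scaled them. EPSTI1 and MPZL2, which have been used as brown fat markers in mice, rose (log2 changes 0.65 and 0.44), although neither passed after the trend with level was removed. COX7A1, a cytochrome oxidase subunit of muscle and brown fat, and PANK1, which works in the making of coenzyme A, fell (log2 changes -0.45 and -0.65).

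Of the adipocyte genes, 10 of 26 fell and 1 rose, against background shares of 17.7% and 11.4%. The median like-level difference was -0.31, and after the trend was removed 10 fell and 1 rose. PLIN1, which coats the lipid droplet, had 298 and 310.1 in the lambs, against 518 and 647 in the fetuses. FABP4, the fatty acid carrier of fat cells, had 335 and 297 in the lambs, against 497 and 728 in the fetuses. PPARG2, the form of PPARG made in fat cells and the master factor of their differentiation, had 298 and 277 in the lambs, against 492 and 568 in the fetuses. In each of these both lambs lay near each other and far below both fetuses, while the fetuses lay further apart from one another. The changes were -0.93 ± 0.13 (SE) for PLIN1, -0.93 ± 0.15 (SE) for FABP4 and -0.88 ± 0.12 (SE) for PPARG2. ADIPOR2, an adiponectin receptor, fell most of the list (log2 change -1.10), whereas its relative ADIPOR1 was the only member that rose (0.61 ± 0.22 (SE), adjusted p 0.0479), a call lost after the trend was removed. LPL, CAV1, SLC2A4, MGLL and ACSL1 (lipoprotein lipase, caveolin, the insulin-responsive glucose carrier, a lipase of monoglycerides and an acyl-CoA synthetase) also fell.

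The hormones of fat cells behaved differently from one another. ADIPOQ, the hormone adiponectin, had 346 and 338 in the lambs, against 425 and 486 in the fetuses. It passed the first fit (change -0.41 ± 0.12 (SE), adjusted p 0.0181) but its like-level difference was 0.02 and its adjusted p was 0.913 after the trend was removed, and the first call was also lost without lamb 1, without lamb 2 or without fetus 2. LEP, the satiety hormone leptin, had 115 and 113 in the lambs, against 138 and 142 in the fetuses. Both lambs lay below both fetuses, as at 33.5% of all promoters, and its change of -0.29 ± 0.20 (SE) did not pass (adjusted p 0.266, and 0.0672 after the trend was removed). CEBPA and CEBPB, factors that act beside PPARG in fat cells, had log2 changes of -0.06 and -0.19, neither of which passed.

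**Figure D2:**
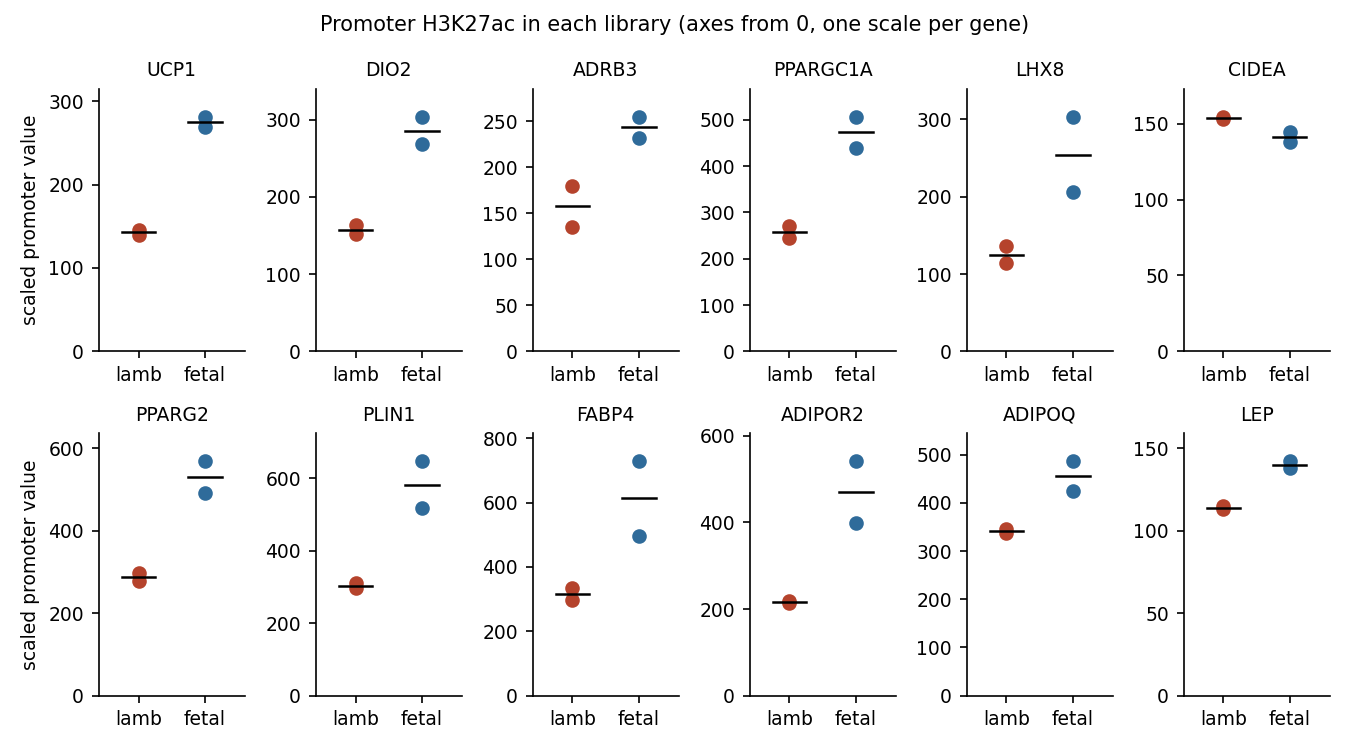
Each panel shows the scaled promoter value of 1 gene, with a point for each of the 2 lamb libraries on the left, the 2 fetal libraries on the right and a bar at each mean; axes start at 0 and differ between genes. UCP1, DIO2, PPARGC1A, PLIN1, FABP4, PPARG2 and ADIPOR2 are lower in both lambs than in both fetuses, CIDEA lies close together in all 4 libraries, and the gap of ADIPOQ and LEP is small.

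The largest falls against like level were of mixed function. AIMP1, a scaffold protein of the enzymes that charge transfer RNAs, had 89.6 and 100.4 in the lambs, against 219 and 357 in the fetuses, with a like-level difference of -1.68, the lowest of the promoters with a symbol that passed both fits with groups that do not overlap. TCF4, a basic helix-loop-helix factor, had 119.7 and 153 in the lambs, against 384 and 388 in the fetuses, with a change of -1.51 ± 0.15 (SE) and an adjusted p of 8.44e-06. IDH1, the cytosolic isocitrate dehydrogenase that yields NADPH, had 55.6 and 68 in the lambs, against 132 and 142 in the fetuses, and its call was lost without lamb 1. PPP2R5A, a subunit of protein phosphatase 2A, had 140.1 and 124 in the lambs, against 331 and 337 in the fetuses. At each of these promoters neither lamb reached the lower of the fetuses. NPR3, the clearance receptor for natriuretic peptides, had 83.2 and 90.5 in the lambs, against 185 and 194 in the fetuses. HES1, a target of Notch signalling that holds progenitors undifferentiated, had 103 and 99.4 in the lambs, against 227 and 212 in the fetuses. E2F3, a factor that opens the cell cycle, had 95.5 and 109 in the lambs, against 221 and 216 in the fetuses. The remaining ones, with their log2 changes, were SNX15 (-1.12), INTS6 (-1.19), ALB (-1.05), POPDC3 (-1.15) and ZFY (-1.14), which encode a sorting nexin, an Integrator subunit, albumin, a Popeye domain protein and a sex-linked zinc finger protein. ZFY has a near relative on X, and because sex is not in the labels, it cannot be told apart from age here.

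The largest gains against like level included genes of white blood cells. OSR2, a zinc finger factor of limb and kidney development, led with 77.3 and 108 in the lambs, against 36.1 and 18.1 in the fetuses, with a like-level difference of 1.44. Its values are low, its change was 1.79 ± 0.38 (SE), and its call was lost without lamb 2. RHOH, a GTPase of blood cells, had 264 and 261 in the lambs, against 112 and 121 in the fetuses, with a change of 1.17 ± 0.16 (SE) and an adjusted p of 8.33e-05. SLC11A1, a metal ion carrier of macrophage phagosomes also known as NRAMP1, had 309.9 and 283 in the lambs, against 144 and 136 in the fetuses. LGALS3, galectin-3, which macrophages and other cells make, had 371 and 351 in the lambs, against 202 and 189 in the fetuses. In these the lambs lay close together and well above either fetus. VDR, the vitamin D receptor, had 209.7 and 198 in the lambs, against 95.9 and 65.7 in the fetuses, with a change of 1.35 ± 0.21 (SE). OCIAD2, a protein of endosomes and mitochondria, had 384 and 356 in the lambs, against 180.2 and 178 in the fetuses. DCTN1, a subunit of the dynactin motor complex, had 348 and 405 in the lambs, against 220.0 and 205 in the fetuses. NOL3, an inhibitor of cell death, had a log2 change of 1.27, C9orf114 one of 0.80, and the transcription factors ISX, LHX2 and TCF24 had changes of 1.42, 1.37 and 1.39. C9orf114, DCTN1 and LHX2 did not pass with the values as the authors scaled them, and ISX, LHX2 and TCF24 did not pass without lamb 2.

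Many genes of DNA replication and cell division fell. Of the replication-dependent histone genes, which are packed in clusters and transcribed as cells copy their DNA, 22 of 25 fell and 0 rose, and the median like-level difference was -0.87, the lowest of the 49 groups and of the 71 name roots described. HIST1H2BD had 136 and 133 in the lambs, against 435 and 403 in the fetuses, a change of -1.63 ± 0.13 (SE). HIST2H2BF had 131 and 147 in the lambs, against 345 and 421 in the fetuses. The only member with a positive change, HIST1H1T, a linker histone of the testis, had a log2 change of 0.09 and did not pass. These genes have near-identical copies between which short reads can be split, so single members are uncertain. The count that fell was 17 to 24 when single libraries were left out. Of the other cell cycle genes, 13 of 43 fell and 1 rose, where 17.7% and 11.4% of all promoters did. Their median like-level difference was -0.38. PCNA, the sliding clamp of DNA polymerase, had 118 and 111 in the lambs, against 197 and 209 in the fetuses, and CCNA2, cyclin A2, had 164 and 165 in the lambs, against 237 and 321 in the fetuses. E2F3 (above) fell most and PLK1, a mitotic kinase, was the only member that rose (0.60 ± 0.16 (SE)).

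Genes of messenger RNA splicing leaned lower. Of 109 splicing factor promoters 43 fell and 0 rose, and 19 fell and 0 rose after the trend was removed, where 10.2% and 8.64% of all promoters did. When single libraries were left out 18 to 49 fell and 0 to 6 rose, and with column totals alone 30 fell and 4 rose. SRSF3, a serine-rich splicing factor, had 205 and 228 in the lambs, against 522 and 541 in the fetuses, a change of -1.29 ± 0.12 (SE). HNRNPU and HNRNPA2B1, proteins that package nascent RNA, also fell. HNRNPU had 202 and 226 in the lambs, against 473 and 496 in the fetuses, and HNRNPA2B1 had 199 and 205 in the lambs, against 471 and 418 in the fetuses. SF3B1, the branch point binding subunit, had 311 and 365 in the lambs, against 701 and 777 in the fetuses. At each of these both lambs lay well below both fetuses. Among RNA-binding genes named RBM 14 of 30 fell and 0 rose. Chaperones (22 of 65 fell and 4 rose), proteasome subunits (9 of 40 fell and 1 rose), cytosolic ribosomal proteins (10 of 36 fell and 0 rose) and translation factors (11 of 48 fell and 2 rose) had more members lower than higher in the first fit, as all promoters did (17.7% and 11.4%), and the shares of proteasome subunits and translation factors that fell, 22.5% and 22.9%, lie near that background. Those of ribosomal proteins and chaperones were 27.8% and 33.8%. After the trend was removed, 10 fell and 4 rose among chaperones, 5 fell and 3 rose among proteasome subunits, 3 fell and 0 rose among ribosomal proteins and 9 fell and 1 rose among translation factors. PSMB9 was the 1 proteasome gene that rose. It encodes the immunoproteasome subunit that interferon induces, and had 248 and 204 in the lambs, against 143 and 102 in the fetuses.

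Nuclear genes of mitochondria held calls mostly on the lower side in the first fit. Of the subunits of the respiratory chain and ATP synthase, 17 of 53 fell and 1 rose, with a median like-level difference of -0.21, but after the trend was removed 6 fell and 1 rose. ATP5B, the catalytic beta subunit of ATP synthase, had 163 and 226 in the lambs, against 423 and 481 in the fetuses, and a change of -1.23 ± 0.15 (SE) with a like-level difference of -1.04. ATP5G3, of its proton channel, and NDUFS7, of complex I, fell (log2 changes -0.81 and -0.72). NDUFA4L2, a relative of an electron transport subunit that low oxygen induces, was the only one that rose, with 208 and 188 in the lambs, against 133 and 112 in the fetuses. Mitochondrial ribosomal proteins leaned down in the first fit (17 of 61 fell and 1 rose) with a median like-level difference of -0.02, close to promoters of like level. Of the fatty acid oxidation genes 3 of 19 fell and 0 rose, or 15.8%, no more than the 17.7% of all promoters. In 13 of the 19 both lambs lay below both fetuses, which held for 33.5% of all promoters. Among carriers of the inner mitochondrial membrane SLC25A42, which imports coenzyme A, had 140.1 and 132 in the lambs, against 312 and 293 in the fetuses, and SLC25A3, which imports phosphate, had 242 and 264 in the lambs, against 482 and 575 in the fetuses. Of the genes of fat synthesis, 8 of 22 fell and 0 rose in the first fit, where 17.7% and 11.4% of all promoters did. After the trend was removed 3 fell and 1 rose, where 10.2% and 8.64% of all promoters did. Their median change was -0.19 without lamb 1, -0.18 without lamb 2, -0.07 without fetus 1 and -0.33 without fetus 2. For all promoters it was 0.01 to 0.02 in these settings. The falls of the first fit included ACACA, acetyl-CoA carboxylase (-0.66), and HMGCS1, of cholesterol synthesis (-0.64).

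Developmental regulators held calls in both directions. HOX genes set position along the body and keep their expression in fat depots. Of these, 13 of 26 fell and 2 rose, where 17.7% and 11.4% of all promoters did, with a median like-level difference of -0.25. After the trend was removed 8 fell and 2 rose, and without lamb 1 or without lamb 2 the numbers that fell were 6 and 8. HOXA9 had 194 and 165 in the lambs, against 396 and 329 in the fetuses, and HOXD8 had 199.5 and 241 in the lambs, against 425 and 429 in the fetuses. The name HOXA5 has entries at different coordinates and is not among the 26. Its entry on chromosome 4 fell (log2 change -0.90), and that on chromosome 11 did not pass the test (-0.32, limma adjusted p = 0.142). Falling members lay in all 4 clusters: A1 to A4, A6 and A9, B2, B4 and B7, C5, C6 and C10, and D8. HOXB1 and HOXB3 rose, HOXB1 with 253 and 199 in the lambs, against 137 and 112 in the fetuses, so that the B cluster held calls in both directions. Homeobox genes outside these clusters leaned the other way: 16 of 47 rose and 5 fell, with a median like-level difference of 0.16. They are mostly weak promoters: after the trend was removed 6 fell and 6 rose. With the values as the authors scaled them 2 rose and 9 fell, where 167 of all promoters rose and 4012 fell. Without lamb 1, 1 rose and 4 fell, and the counts without lamb 2 were the same. LHX4 and VAX2, of the developing brain and eye, rose (log2 changes 1.16 and 1.18). Strongly marked members fell instead. MEIS1, a partner of HOX proteins, had 171 and 204 in the lambs, against 422 and 466 in the fetuses, HLX, a mesenchymal factor, had 146 and 148 in the lambs, against 364 and 329 in the fetuses, and ZEB1, which keeps mesenchymal identity, had 164 and 180.4 in the lambs, against 294 and 288 in the fetuses. Of SOX, GATA and T-box factors 4 of 16 (25%) fell and 0 rose, beside 17.7% and 11.4% of all promoters. TBX18, of mural and progenitor cells, had 179 and 173 in the lambs, against 373 and 388 in the fetuses, and TBX3 had 186 and 193 in the lambs, against 360.3 and 306 in the fetuses.

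Ligands and receptors of growth factors were called in both directions, as all promoters were (11.4% rose and 17.7% fell). Of WNT, FGF, BMP and TGF ligands 7 of 37 rose and 6 fell. WNT2B and BMP3 rose (log2 changes 1.02 and 1.10), as did BMP6 (0.67). WNT11 and FGF-10, of which the second supports preadipocytes in mice, fell (-0.56 and -0.57). Of their receptors 8 of 46 rose and 7 fell. FZD1 and FZD2, which bind WNT, fell. FZD1 had 185 and 199.8 in the lambs, against 364 and 379 in the fetuses, and FZD2 had 191 and 209 in the lambs, against 364 and 362 in the fetuses. PDGFRA, the receptor that marks fat progenitors, rose instead (log2 change 0.64 ± 0.17 (SE)). Genes of stromal cells and preadipocytes were split alike: 7 of 23 fell and 5 rose. COL3A1, a fibril collagen of young connective tissue, had 256 and 286 in the lambs, against 581 and 791 in the fetuses, a change of -1.32 ± 0.14 (SE). VIM, vimentin, and DCN, decorin, fell (log2 changes -0.84 and -0.76). THY1 and S100A4, of fibroblasts, rose (0.55 and 0.86). Of 23 collagens 3 fell and 2 rose. COL4A2, of basement membrane, had 203 and 206 in the lambs, against 542 and 529.9 in the fetuses, where each fetus held more than each lamb by over 2-fold. TIMP2, an inhibitor of matrix proteases, rose (239 and 242 in the lambs, against 153 and 136 in the fetuses).

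Nuclear receptors, clock genes and chromatin enzymes held single large changes. Of the nuclear receptors 6 of 31 fell and 4 rose, or 19.4% and 12.9%, near the 17.7% and 11.4% of all promoters. NR3C1, the glucocorticoid receptor, had 114 and 119 in the lambs, against 228 and 172 in the fetuses. RARG, a retinoic acid receptor, rose (log2 change 0.53). In the molecular clock ARNTL and CLOCK form the activating pair, NR1D1 represses ARNTL, and DBP and BHLHE40 are driven by the pair. Of the clock genes measured 4 of 16 fell and 2 rose. NR1D1 had 227 and 254 in the lambs, against 485 and 414 in the fetuses, DBP had 236 and 219 in the lambs, against 414 and 391 in the fetuses, and BHLHE40 had 181 and 175 in the lambs, against 376 and 249 in the fetuses. ARNTL had 237 and 204 in the lambs, against 154 and 144 in the fetuses. NR1D1 and DBP thus lay lower and ARNTL higher in both lambs, and each passed both fits. The hour of collection is not in the labels and cannot be told apart from age. Of the chromatin enzymes 11 of 46 fell and 6 rose. EP300, which itself places this mark, had 170.2 and 159 in the lambs, against 261 and 238 in the fetuses, and BRD2, a reader of acetylated histones, had 219 and 203 in the lambs, against 379.8 and 320.4 in the fetuses. SIRT1, a deacetylase, had 131 and 156 in the lambs, against 223 and 295 in the fetuses. TET1, which oxidizes methylated DNA, rose (154 and 141 in the lambs, against 71.8 and 90 in the fetuses). KLF9, a Kruppel-like factor that glucocorticoids induce, had 223 and 229 in the lambs, against 479 and 432 in the fetuses, and its relative KLF7 went the other way with 349 and 364 in the lambs, against 171 and 220.2 in the fetuses.

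Cytokine genes and their receptors leaned higher in lambs than all promoters, of which 11.4% rose and 17.7% fell in the first fit. Fewer were called higher with the values as the authors scaled them or without lamb 1. The median change of the group lay 0.30 above that of all promoters in the first fit. A scaling shifts all promoters of a library nearly alike, so with the authors' scaling this distance (0.30) could hardly move. Without lamb 1 the group median lay 0.21 above that of all promoters. Of chemokines, interleukins, related cytokines and their receptors 21 of 77 rose and 3 fell, with a median like-level difference of 0.21, and after the trend was removed 3 fell and 16 rose. By name root, IL (10 of 31 rose, 1 fell, median like-level difference 0.32) and CD (13 of 46 rose, 3 fell, 0.29) stood highest of the 71 roots with at least 15 promoters, before ADAMTS (0.18), CYP (0.15) and LRRC (0.13). The lowest were HIST (-0.87), NR (-0.36), WDR (-0.23), RPS (-0.19) and RBM (-0.19). CSF2, a growth factor of granulocytes and macrophages, had 249 and 176 in the lambs, against 93.1 and 83.2 in the fetuses. TNFSF13B, the B cell survival factor BAFF, had 152 and 149.6 in the lambs, against 67.6 and 77.6 in the fetuses. IFNGR2, a chain of the interferon gamma receptor, had 225 and 200.8 in the lambs, against 124 and 100.8 in the fetuses. Both lambs were above both fetuses in 45 of the 77, these included, which held for 33% of all promoters. Interferon-induced genes and genes of antigen presentation were divided: 8 of 32 rose and 7 fell in the first fit, and 0 fell and 8 rose after the trend was removed. With the values as the authors scaled them 3 rose and 12 fell, where 167 of all promoters rose and 4012 fell. Without lamb 1 their median change was -0.0066, against 0.014 for all promoters. MX1, an antiviral GTPase, had 209 and 207 in the lambs, against 108 and 121 in the fetuses. LY6E had 148 and 119 in the lambs, against 63.9 and 40.2 in the fetuses. GBP5, a guanylate-binding protein, had 359 and 194 in the lambs, against 145 and 120.0 in the fetuses, with lamb 1 far above the rest. IFIH1 and DDX58, sensors of viral RNA, fell in the first fit only (log2 changes -0.65 and -0.47).

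With the values as the authors scaled them 3 of the 77 cytokine genes rose and 9 fell, and their median change was -0.0028 beside -0.30 for all promoters. Without lamb 1 the counts were 1 and 1, and without lamb 2 they were 6 and 1.

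Marker genes of other cell types were read beside these. Among all promoters 11.4% rose and 17.7% fell in the first fit. Of 27 lymphocyte genes listed 11 were in the table, of which 4 rose and 0 fell. Without lamb 1 only 1 rose and without lamb 2 only 2 did, and 2 did with the values as the authors scaled them. CD8A, of killer T cells, had 172 and 160.0 in the lambs, against 85.2 and 61.1 in the fetuses. CD3D, of the T cell receptor complex, had 169.8 and 106 in the lambs, against 90.8 and 73 in the fetuses, with lamb 1 far above the rest, and its call was lost after the trend was removed. The summed value of the 11 lymphocyte promoters was 2112 and 1891 in lambs, against 1494 and 1447 in fetuses. Of macrophage genes 11 of 25 were measured, 1 rose (CD86, log2 change 0.95) and 1 fell (MRC1, -0.44) in the first fit, 0 fell and 4 rose after the trend was removed, and the median like-level difference was 0.32. The sums were 2716 and 2542 in lambs, against 2455 and 2386 in fetuses. The 26 adipocyte promoters summed to 5743 and 5473 in lambs, against 7546 and 7800 in fetuses. The part of immune cell number in the cytokine result was not tested. Endothelial sums were 3492 and 3432 in lambs, against 3964 and 3458 in fetuses, where 3 of 16 fell and 0 rose. The lists for smooth muscle, skeletal muscle, adrenal, mesothelium or kidney, and nerve had 8, 6, 3, 3 and 3 members in the table. CNN1, calponin of smooth muscle, rose (log2 change 0.81). MYL1, a myosin light chain of skeletal muscle, had 115 and 134 in the lambs, against 148 and 362 in the fetuses, where fetus 2 alone was high. NR5A1, the adrenal and gonadal steroid factor, had 65 and 74.3 in the lambs, against 29.2 and 25.5 in the fetuses.

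Membrane genes held calls on both sides, as all promoters did (11.4% rose and 17.7% fell). Of ion channels and transmitter receptors, mostly weak promoters, 19 of 81 rose and 6 fell, and after the trend was removed 4 fell and 7 rose. CACNA1D, a calcium channel, had 95.5 and 109 in the lambs, against 40.8 and 40.8 in the fetuses, and HTR7, a serotonin receptor, had 179.6 and 166 in the lambs, against 80.6 and 66.2 in the fetuses. GLRX2, matched to this group by its letters only, is a glutaredoxin and fell (log2 change -0.70). With the values as the authors scaled them 2 of the group rose and 10 fell, where 167 of all promoters rose and 4012 fell. Without lamb 1 the median change of the group was 0.25, against 0.01 for all promoters. Of solute carriers 28 of 165 rose and 25 fell. Of G protein-coupled receptors 9 of 51 rose and 6 fell in the first fit, but 4 fell and 1 rose after the trend was removed, and without lamb 1, 0 rose and 4 fell. Among them were the adrenaline receptors ADRA2A, which rose (log2 change 0.77), and ADRA1A, which fell (-0.75). Of 33 microRNA gene promoters 5 rose and 9 fell. The promoter of oar-mir-29a, a microRNA whose known targets include collagens, had 219 and 220.2 in the lambs, against 93.5 and 122 in the fetuses, and that of oar-mir-199a had 302 and 364 in the lambs, against 577 and 721 in the fetuses. Further groups, in the first fit, held calls in both directions: ZNF zinc finger genes (10 of 157 rose and 20 fell, but 7 fell and 15 rose after the trend was removed), ubiquitin enzymes (14 of 196 rose and 31 fell), RAB and other small GTPases (7 of 81 rose and 16 fell), motor proteins (10 of 47 rose and 9 fell), matrix and adhesion genes (12 of 75 rose and 19 fell), AP-1 and immediate-early factors (2 of 18 rose and 5 fell), citric acid cycle enzymes (1 of 19 rose and 4 fell), forkhead factors (1 of 15 rose and 2 fell), and keratins, claudins and cadherins (6 of 22 rose and 2 fell). Of aminoacyl-tRNA synthetases 0 of 29 rose and 7 fell.

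**Figure D3:**
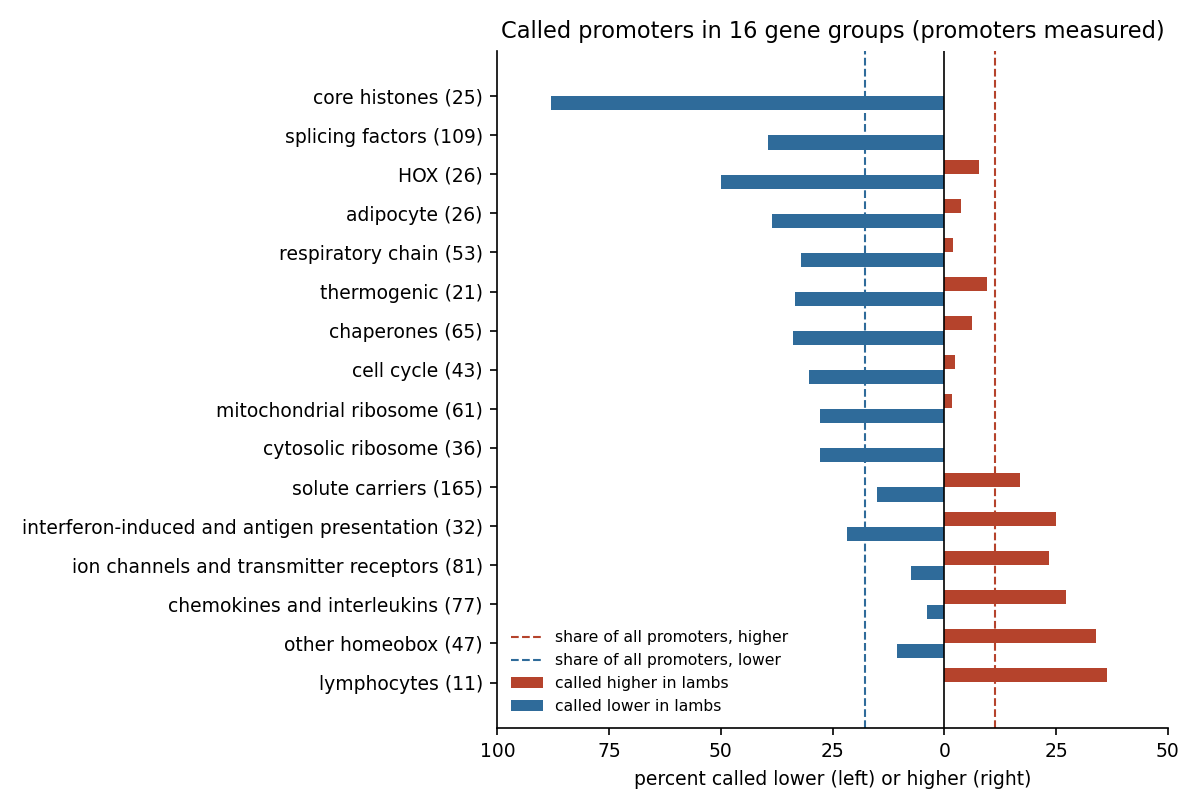
Bars give, for 16 gene groups with the number of promoters measured in brackets, the percent called higher in lambs (red, to the right) and lower in lambs (blue, to the left) by limma, and dashed lines the shares of all 13222 promoters (11.4% and 17.7%). Histone, splicing, HOX and adipocyte genes pass the blue line and hardly reach the red one, while lymphocyte, other homeobox, cytokine and ion channel genes pass the red one. With the values as the authors scaled them, homeobox, cytokine and ion channel genes had more members lower than higher, as all promoters did (4012 lower and 167 higher). Their median changes then lay 0.41, 0.30 and 0.27 above that of all promoters, but a scaling of whole libraries can hardly move such distances.

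Of the autosomal regions, 3849 rose and 8087 fell in lambs, which is 4.46% and 9.38% of the 86245 tested (edgeR's quasi-likelihood test, adjusted p under 0.05). By 2-fold or more 243 rose and 1438 fell (0.282% and 1.67%), and by 4-fold or more 3 and 27. With library totals in place of TMM factors the counts were 6239 and 6252. Without lamb 1 they were 381 and 2203, without lamb 2 they were 854 and 3196, without fetus 1 they were 14460 and 16523, and without fetus 2 they were 6697 and 10687. The table did not hold both stages to the same lowest count. The lowest mean count over the fetuses was 77.5 and over the lambs 0, and the mean was under 100 in 1625 regions for lambs, against 124 for fetuses. So regions with next to no reads in fetuses are scarce among those tested, and those with few in lambs are not.

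The direction of change differed with the other marks at the region. The share that fell ran from 6.62% on chromosome 21 to 13.3% on chromosome 6, and the share that rose from 2.68% on chromosome 26 to 6.22% on chromosome 21. Regions that overlap an H3K4me3 region of the series and no H3K27me3 region, a combination typical of active promoters, leaned lower: 4570 of 31311 fell and 726 rose. Regions with neither mark, as many enhancers are, were nearer balance, with 3225 of 51136 that fell and 2664 that rose. Where H3K27ac regions overlap both other marks, 360 of 2606 rose and 204 fell, and where they overlap H3K27me3 alone, 99 of 1192 rose and 88 fell. Without the 95 regions denser than 3 times the median, 11.3% of the 2513 with both marks rose and 7.998% fell. The split also differed by width within these classes: with both marks 93 rose and 5 fell in the narrowest quartile of all regions, and 66 rose and 136 fell in the widest. With H3K4me3 alone 150 rose and 129 fell in the narrowest quartile, and 191 rose and 3133 fell in the widest. With neither mark 827 rose and 385 fell in the narrowest, and 286 rose and 1146 fell in the widest. The median width was 1800 bp with H3K4me3 alone and 1050 bp with neither mark, so these classes differ in width as well as in marks.

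The direction also differed by width and density. In the widest quartile of regions 4459 of 21561 fell and 553 rose, and in the narrowest quartile 524 of 21562 fell and 1109 rose. In the lowest decile by read density 2133 of 8625 fell and 0 rose, where the low counts of the table are mostly those of lambs. In the highest decile the other marks divided the regions: without H3K4me3, 720 of 1941 rose and 40 fell, and with H3K4me3, 539 of 6684 rose and 1245 fell. Dense H3K27ac regions without H3K4me3 thus rose in 37.1% of cases and those with it in 8.06%. Density is the mean of lamb and fetal libraries together, so the ranking itself sorts regions high in lambs towards the dense deciles. The climb of gains with density therefore cannot be read as a trait of dense regions. Among these regions densities were more spread in lambs: the 90th percentile was 1.97 and 1.93 times the 10th in the lambs, against 1.62 and 1.76 times in the fetuses. Regions with low fetal counts are scarce here, so the low end is cut in fetuses more than in lambs. This spread therefore cannot be compared between the stages, nor set against that of promoters.

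**Figure D4:**
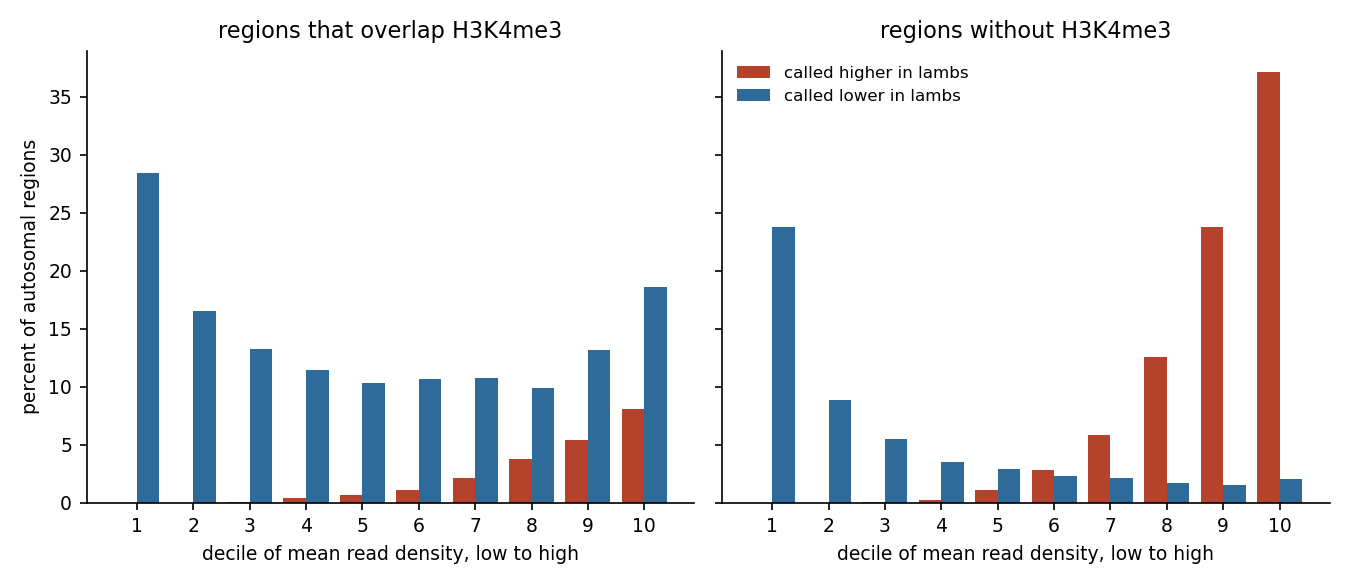
Bars give the percent of autosomal regions called higher (red) and lower (blue) in lambs within each decile of mean read density, low to high on the x axis, for regions that overlap an H3K4me3 region (left) and regions that do not (right). Without H3K4me3 the red bars climb to 37.1% in the densest decile, and with H3K4me3 the blue bars stay above the red ones in every decile. Density is the mean of lamb and fetal libraries together, so the ranking itself sorts regions high in lambs towards the dense deciles.

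Of the regions with a mean count of at least 100, the largest falls included a neighbouring pair on chromosome 9. In build Oar_v3.1 the region at chr17:26029951-26030950 held 0.862 and 1.33 CPM (reads scaled to the size of the library) in lambs, against 4.95 and 6.98 CPM in fetuses, a log2 change of -2.45. Neighbouring regions at chr9:4261701-4264150 and chr9:4264701-4265850 fell together, the first with 3.29 and 4.56 CPM in lambs, against 16.8 and 24.2 CPM in fetuses. The region at chr16:47766151-47769350 held 4.06 and 4.72 CPM in lambs, against 20.0 and 23.1 CPM in fetuses (edgeR adjusted p 2.74e-05), and that at chr15:44318801-44322050 held 6.51 and 4.45 CPM in lambs, against 24.1 and 28.2 CPM in fetuses. That at chr21:13458251-13460600 held 2.91 and 3.61 CPM in lambs, against 10.98 and 23.1 CPM in fetuses, which lay far apart. In windows of 1 Mb with at least 10 regions, 26 of 1854 had at least 50% of their regions lower and 0 had at least 50% higher. Over all autosomal regions 9.38% fell and 4.46% rose, and regions with next to no fetal reads are scarce among those tested. In chr3:51000001-52000000, 12 of 14 regions fell, in chr2:189000001-190000000, 22 of 29, and in chr8:46000001-47000000, 22 of 30. The window with the highest share of gains was chr14:57000001-58000000, with 11 of 23. No annotation of this build was used here, so these regions carry no gene names.

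Among the largest gains several were pile-ups, short regions of extreme density. The region at chr11:58261201-58262250 held 379.6 and 178.5 CPM in lambs, against 70.7 and 57.2 CPM in fetuses, at 26.99 times the median density, with lamb 1 far above lamb 2. Those at chr11:2651-3350, chr9:273001-273750 and chr16:31613501-31615250 were also over 3 times the median density, and lamb 1 was again the highest. Of the 95 regions over 3 times the median density 77 rose. They took 2.28% and 1.29% of the reads of the lambs, against 0.725% and 0.685% of the reads of the fetuses. Of gains at ordinary density the largest were at chr20:28112751-28113700 (7.83 and 13.2 CPM in lambs, against 2.84 and 2.16 CPM in fetuses), at chr3:119002501-119003300, and at chr18:5460601-5461500 (18.6 and 15.6 CPM in lambs, against 4.58 and 4.42 CPM in fetuses). These were picked after the pile-ups were seen. The last overlaps neither H3K4me3 nor H3K27me3 regions.

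Of the promoter names, 863 carry coordinates, which ties regions to them. Of these, 799 are small RNA or histone genes, and 21 of the other 64 entries hold a region. In 5 of the 21 a region fell and none rose (YWHAZ among them, with 2 of 5), in 1 (ATP2B, with 4 of 11) regions rose and none fell, and in 15 no region was called, as at the 7 of ANXA2. SRSF3 and HOXA5, with every region lower, were chosen for description after their values were seen. SRSF3 (chr20:10605612-10609936) has 2 regions, and both fell. The one across most of the gene, chr20:10601851-10608100, held 32.5 and 35.6 CPM in lambs, against 64.9 and 58.4 CPM in fetuses. HOXA5, a HOX gene of trunk fat, is named at chr4:68876467-68891655 and has 4 regions there, and all 4 fell, as did its promoter in the promoter table (-0.90) and those of its neighbours HOXA4 and HOXA6. The widest of the HOXA5 regions, chr4:68872051-68881550, held 55.2 and 56.6 CPM in lambs, against 100.96 and 77.3 CPM in fetuses (edgeR adjusted p 0.00446).

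One region lay on the mitochondrial genome (MT:11351-16450), which has no histones, so that its reads are not a measure of the mark. It held 633 and 439 reads in lambs, against 3425 and 6957 reads in fetuses. As RPM (reads scaled to the reads in all regions of the library) these were 14.6 and 12.6 in lambs, against 77.7 and 172.6 in fetuses, a log2 change of -3.27 in the fit over all regions (edgeR adjusted p 2.74e-05). Over all regions of that fit, X included, 4.48% rose and 9.44% fell. The mitochondrial fall was larger than any of the autosomal falls named above. Libraries of the other marks showed the same gap between the stages. In the corresponding H3K4me3 region they held 11.6, 15.4 and 32.5 RPM in the 3 lambs, against 101.1 and 210.8 in the fetuses. In that of H3K27me3 they held 6.65 and 11.6 RPM in lambs, against 71.5 and 175.2 in fetuses. Fetus 2 was above fetus 1 in every mark.

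**Figure D5:**
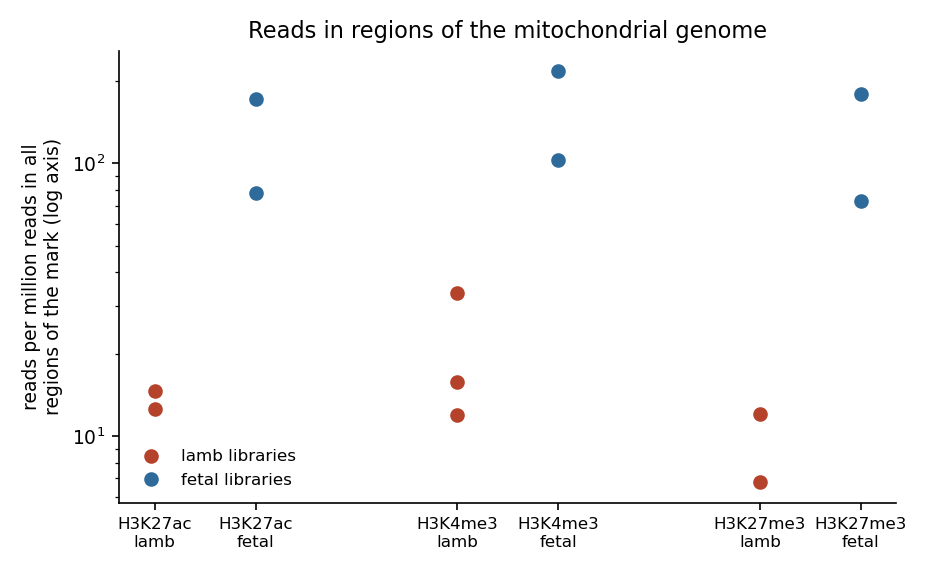
Points give, for each library, the summed RPM of the regions on the mitochondrial genome (1 for H3K27ac, 2 for each other mark), on a log axis, with lamb libraries in red to the left of fetal libraries in blue for H3K27ac, H3K4me3 and H3K27me3. In each mark every lamb library lies below every fetal library, and fetus 2 is the highest.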

How the data were processed

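Native chromatin immunoprecipitation of perirenal fat was sequenced as 50 bp single-end reads on a GAIIx or HiSeq2000 (assignment of libraries not stated) and mapped to Oar_v3.1 with CLC Genomics Workbench 7.0, per the labels' protocols and design text. The submitters' processing notes also name MACS, edgeR and bedtools 2.19.0, without roles. Region values are read counts as deposited by the authors. Promoter values are a signal the authors scaled by a factor the sources used here do not give; in each library they are whole multiples of 1 step, within 0.02 reads. Inputs, pooled per stage, are not used here.

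Promoter values were divided by column total times TMM factor, taken as log2(value + 1) and tested with limma 3.58.1 (trend), lamb minus fetal, before and after cyclic loess normalization. Regions were tested with edgeR 4.0.16 (quasi-likelihood, TMM, filterByExpr) in R 4.3.3. Adjusted p-values are Benjamini-Hochberg over the whole table, at 0.05. The tests were checked on simulated data. DESeq2 1.42.0 was an alternative. With 2 animals per stage an exact two-sided permutation test cannot go below 0.333. The p-values set each change against the spread between these animals, with variances partly shared across promoters or regions. Same-numbered animals of the stages are different animals, and their deviations correlated at 0.277 (promoters) and 0.298 (regions), over 2 pairs only, so the numbers were not taken as pairs.

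Named promoters are the 12 with the largest like-level difference in each direction among those passing both fits with groups that do not overlap (small RNA genes, core histones and IDs without a symbol left out), up to 4 passing members per list and direction, and UCP1, PPARGC1A, DIO2, ADRB3, CIDEA, ADIPOQ, LEP, PLIN1 and FABP4; the 5 highest and lowest name roots; and the 6 autosomal regions per direction with the largest changes and a mean count of at least 100. CEBPA, CEBPB, HIST1H1T and a few others outside this rule were named after their values were seen. The members and lists were chosen with earlier results of these data known. Sequence features of promoters were not analysed here.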

Additional observations from a re-analysis of the deposited data

Results flagged for a closer look

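The region on the mitochondrial genome lies outside the comparison of the mark, and drew a closer look because it carries reads in every library and differs between stages. It held 633 reads in lamb 1 and 439 reads in lamb 2, against 3425 reads in fetus 1 and 6957 reads in fetus 2. In each mark both fetuses lay above every lamb. Its part in the changes at nuclear promoters was not tested.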

How the results depend on the processing

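Counts of calls depended on scaling and on single libraries. Promoters that rose numbered 2314 with column totals alone and 167 with the authors' scaling, where 4012 fell. Leaving out each library in turn gave 142 to 2839 promoters that rose and 1035 to 3014 that fell; after the trend with level was removed, 128 to 2575 rose and 256 to 2685 fell. Autosomal regions that rose numbered 6239 with library totals, beside 6252 that fell, and 381 to 14460 rose and 2203 to 16523 fell as each library was left out. CIDEA turned to -0.20 with the authors' scaling (limma adjusted p 0.549). The replicate block, although the numbers pair no animals, gave 2343 promoters that rose and 2912 that fell, 1873 that rose after the trend was removed, and 10921 regions that rose and 14169 that fell. The cause of these shifts was not tested. Counts with edgeR (1499 and 2350) and DESeq2 (1150 and 1905) on recovered promoter reads, with another pseudocount, with a filter on low values, with DESeq2 on regions (2760 and 7056) with narrower or wider windows of like level and with stricter overlap stayed within 1.5 times the first. Settings chosen after seeing the data did too: without the 95 densest regions 3772 rose and 8084 fell, and without small RNA and histone genes 1405 promoters rose and 2199 fell. With 2 animals per stage and no depth beyond these libraries, promoters that did not pass may still differ.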

Other observations

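In 3 autosomal regions a library held no reads. The region at chr13:67333501-67334350 had 0 and 0 reads in lambs, against 197 and 85 reads in fetuses. That at chr1:208026151-208028250 had 737 and 0 reads in lambs, against 528 and 445 reads in fetuses. That at chr13:31065251-31066050 had 95 and 99 reads in lambs, against 188 and 0 reads in fetuses. On X, where sex is not in the labels, 57 of 1025 regions rose and 150 fell.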
